A study of Mus musculus with 6 samples.

Results

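Lysosomal proteases and lysosomal membrane proteins were examined in pancreatic islets of mice without TRPM7 kinase activity. The 9 genes were set by symbol: the cathepsin genes *Ctsd*, *Ctsb*, *Ctsl* and *Ctsz*, the genes of the processed precursors prosaposin (*Psap*) and progranulin (*Grn*), and those of the membrane proteins LAMP1, LIMP-2 (*Scarb2*) and CD63. All 9 were found among the 41710 genes in the files.

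Lysosomes are acidic organelles in which hydrolases break down proteins, lipids and carbohydrates delivered by endocytosis and autophagy. Most soluble enzymes are made in the ER, carried there by mannose 6-phosphate receptors and matured in the acid lumen, while heavily glycosylated membrane proteins line the limiting membrane. In β cells lysosomes also take up surplus insulin granules, and the transcription factor TFEB and its relatives bind short E-box motifs near many lysosomal genes.

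RNA came from 3 Trpm7R/R mice, which carry a kinase-inactivating point mutation of *Trpm7* in every cell, and from 3 WT littermates on the same C57BL/6 background. Both genotypes had received an obesogenic high-fat diet with 45% of its energy from fat for 16 weeks, starting at 8 weeks of age, so that they were about 24 weeks old, and the isolated islets were kept in culture medium. Each mouse gave 1 whole-islet library of total RNA, and their sex is not stated in those sources that were used. Trpm7R/R libraries bear the numbers 4, 6 and 8 and WT libraries the numbers 1, 2 and 3.

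The libraries held 17213285 to 20307909 mapped reads in Trpm7R/R and 18226053 to 18825699 in WT, as the deposited RPKM values (exon reads per kilobase of exon and per 1000000 mapped reads) imply. Exon reads numbered 1491796 to 1792254 in Trpm7R/R and 1312128 to 2135466 in WT, and 11 predicted genes of very high density took 63.7% ± 4.74 of them in Trpm7R/R and 56.9% ± 10.8 in WT (SD, n = 3 each). Reads across exon-exon junctions, outside the mitochondrial chromosome and those 11 genes, numbered 6133 to 10381 in Trpm7R/R and 16932 to 35386 in WT. Endocrine markers gave 353 to 761 exon reads per 1000000 mapped reads in Trpm7R/R and 1157 to 2770 in WT, whereas macrophage markers gave 6.74 to 17.9 in Trpm7R/R and 10.6 to 18.0 in WT. Intron reads of Y-linked genes stood at 0.983, 0.0778 and 0.0651 times the background in Trpm7R/R libraries 4, 6 and 8, and at 1.36 to 1.51 times in WT, so that genotype and the presence of Y-linked reads cannot be fully told apart. *Trpm7* itself had a log2 fold change of -0.08 (adjusted p = 1.00 in edgeR), which does not check the labels because the allele is a point mutation. In whole islets, fewer cells of a type and less RNA per cell cannot be told apart.

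Promoters of 2 genes are shown, those with the most E-boxes of the form CACGTG. These genes also had the most and the least negative fold change of the genes tested. Whether E-boxes bear on the fold changes was not tested. RefSeq promoter windows, 250 bases before to 50 bases after the start on GRCm38.p6, were found for 8 of the 9 genes, in 9 windows. *Ctsd* lies at chr7:142387778-142388077 on the minus strand and *Lamp1* at chr8:13158911-13159210 on the plus strand. Capitals mark CACGTG, the core of the motif bound by TFEB and its relatives, which reads the same on both strands.
Ctsd: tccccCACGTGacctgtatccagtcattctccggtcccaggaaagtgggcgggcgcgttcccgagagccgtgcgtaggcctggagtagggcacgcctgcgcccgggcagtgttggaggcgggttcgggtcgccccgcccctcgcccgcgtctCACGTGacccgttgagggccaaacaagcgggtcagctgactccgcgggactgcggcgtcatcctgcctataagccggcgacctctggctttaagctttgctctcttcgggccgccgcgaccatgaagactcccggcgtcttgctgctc
Lamp1: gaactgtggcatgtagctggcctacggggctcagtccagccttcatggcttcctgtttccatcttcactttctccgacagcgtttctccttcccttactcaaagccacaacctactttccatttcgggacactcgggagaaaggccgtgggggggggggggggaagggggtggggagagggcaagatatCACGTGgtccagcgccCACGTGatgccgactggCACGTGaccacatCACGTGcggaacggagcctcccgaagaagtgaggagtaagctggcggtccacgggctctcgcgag
The *Ctsd* window held 2 copies, beginning 245 and 98 bases before the start, of which 1 had the longer form TCACGTGA, and the *Lamp1* window held 4 copies. *Ctsl* held 1 copy, 236 bases before the start, and the windows of *Ctsz*, *Psap*, *Grn*, *Scarb2* and *Cd63* held none. CACGTG was found in 2349 of all 32851 promoter windows (7.15%) and TCACGTGA in 320 (0.974%). Of 109 windows of the other lysosomal lists, 25.7% held CACGTG and 12.8% TCACGTGA, and of 16 windows of proton pump genes 4 held CACGTG and 3 TCACGTGA. A match describes the letters only and says nothing of binding.

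All 9 genes were sparsely covered. Compared per length, *Ctsd* had the highest mean level in WT, 1.59 ± 0.952 RPKM (SD, n = 3), followed by *Cd63* with 0.960 ± 0.139, *Scarb2* with 0.931 ± 0.225, *Psap* with 0.683 ± 0.153 and *Lamp1* with 0.564 ± 0.148. *Ctsz* with 0.288 ± 0.0589 and *Ctsl* with 0.269 ± 0.0248 came next, and *Grn* with 0.135 ± 0.0403 and *Ctsb* with 0.122 ± 0.0165 were lowest. Neighbours in this order overlapped between WT libraries, apart from *Lamp1* against *Ctsz* and *Ctsl* against *Grn*. In Trpm7R/R the mean RPKM was highest for *Scarb2* (0.832 ± 0.402), then *Cd63* (0.607 ± 0.116), *Lamp1* (0.505 ± 0.143) and *Ctsd* (0.442 ± 0.187), and *Ctsb* was again lowest (0.0421 ± 0.0148). Exon length here is that of overlapping exons merged. The longest merged exon held 3124 of 3682 bases in *Cd63*, 4864 of 6489 in *Ctsl* and 3692 of 6051 in *Ctsb*. These shares were the largest of the 9 genes, against 828 of 2351 bases in *Ctsd*. Whether this bears on the order, or on other comparisons of exon density between genes, was not tested.

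Because introns took 80.6% ± 2.63 of gene reads in Trpm7R/R and 80.5% ± 4.35 in WT, each exon level was also set against the background, the median intron density of the same library. In WT, 5 of the 9 genes had a mean exon density over 2 times the background, namely *Ctsd*, *Cd63*, *Scarb2*, *Psap* and *Lamp1*, and in Trpm7R/R 3 did, *Scarb2*, *Cd63* and *Lamp1*. Exons of *Ctsb* lay below the background in every library, at 0.169 ± 0.0424 times it in Trpm7R/R and 0.513 ± 0.0611 times in WT. Averaged over both genotypes, the exon density of *Ctsd* exceeded that of 98.0% of protein-coding genes, that of *Cd63* 96.1% and that of *Ctsb* only 30.3%.

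**Figure D1:**
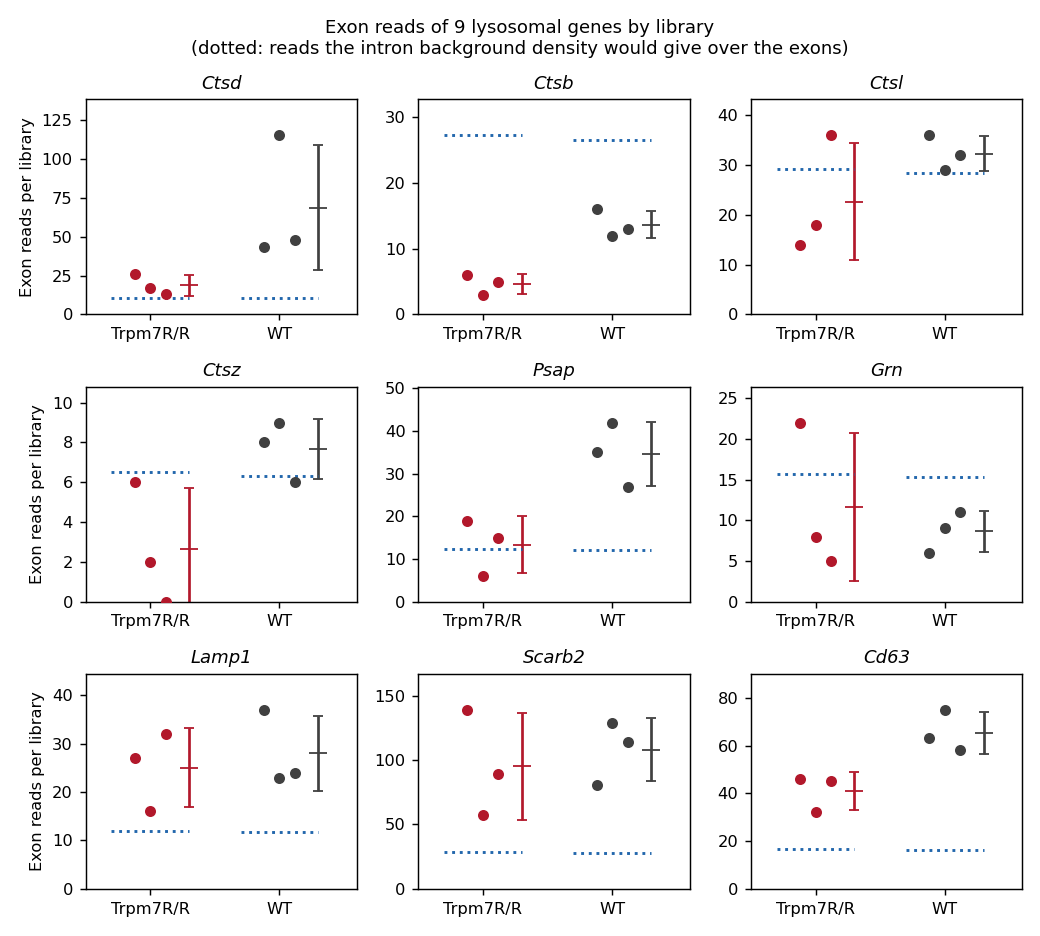
Exon reads per library (vertical axes, raw counts) of the 9 genes in Trpm7R/R (red, left) and WT (grey, right); points are libraries, bars the mean ± SD of 3 mice, and dotted lines the reads that the background density would give over the same exons. On these raw counts *Ctsd*, *Psap*, *Ctsb* and *Cd63* had fewer reads in every Trpm7R/R library than in any WT library. *Lamp1*, *Scarb2*, *Ctsl* and *Grn* overlapped. The share of all genes that separate on raw counts was not computed. On normalized counts *Ctsd*, *Psap* and *Cd63* were likewise lower, as were 6.84% of all genes tested, and *Ctsb* was not tested.

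To compare the genotypes, exon reads of 11674 genes were tested with edgeR, and calls required both an adjusted p no higher than 0.05 and at least a 2-fold change. Of all genes tested, 3 were called, all lower in Trpm7R/R (0.0257%), and none was a lysosomal gene of the 9. Of the 9 genes, 6 passed the filter on low counts, and all 6 had a negative log2 fold change, as did 5758 of all 11674 genes tested. The median of the 6 was -0.56, against 0.01 over all genes tested. At an unadjusted p under 0.05, 2 of the 6 were lower, *Ctsd* and *Psap*, and 0 were higher, against 4.57% of all genes lower at this p. The normalized count of 3, *Ctsd*, *Psap* and *Cd63*, was lower in every Trpm7R/R library than in every WT library, as it was for 6.84% of all genes. DESeq2's Wald test and edgeR's likelihood ratio test each called 1 of the 6 lower, *Ctsd*, and limma-voom called 2, *Ctsd* and *Psap*. Over all 11674 genes these tools called 0.831%, 1.38% and 2.37% lower.

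*Ctsd* encodes cathepsin D, the main aspartic protease of lysosomes. It had 26, 17 and 13 exon reads in Trpm7R/R libraries 4, 6 and 8, against 43, 115 and 48 in WT libraries 1, 2 and 3. The groups did not overlap, and WT library 2 stood far above the other WT libraries. The log2 fold change was -1.81 (SE 0.44, 95% interval -2.76 to -0.87), which edgeR put at an unadjusted p of 0.00109 and an adjusted p of 0.134. Without WT library 2 the log2 fold change was -1.20 (adjusted p = 1.00 in edgeR), and without Trpm7R/R library 4, where 1.19% of genes were called lower, the adjusted p was 0.0305. With the filter relaxed to genes with at least 1 count, of which 0.411% were called lower, edgeR gave an adjusted p of 0.0172. Under the main filter DESeq2 gave 0.0311 and limma-voom 0.00280, where 0.831% and 2.37% of genes were called lower. Exon density stood at 1.79 ± 0.646 times the background in Trpm7R/R and 6.70 ± 4.03 times in WT, with 45, 6 and 8 intron reads in Trpm7R/R and 9, 5 and 20 in WT.

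The cysteine cathepsins were sparser. *Ctsb*, whose protease also trims dipeptides from the C-terminus, had 6, 3 and 5 exon reads in Trpm7R/R and 16, 12 and 13 in WT. These raw counts did not overlap, for which no share over all genes was computed. The gene did not pass the filter, and over all genes with at least 1 count it had a log2 fold change of -1.42 (SE 0.59, adjusted p = 0.620 in edgeR). Its introns overlapped between genotypes, with 100, 30 and 48 reads in Trpm7R/R and 46, 57 and 67 in WT.

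*Ctsl*, the gene of the endopeptidase cathepsin L, had 14, 18 and 36 exon reads in Trpm7R/R and 36, 29 and 32 in WT. Trpm7R/R library 8 reached the highest WT library, and the log2 fold change of -0.48 (SE 0.40, 95% interval -1.34 to 0.38) had an adjusted p of 1.00 in edgeR. Of the exon reads of *Ctsl*, 85.5% were uniquely mapped, the lowest share among the 9 genes, and a processed pseudogene lies within the gene on the same strand, so that its count is uncertain. *Ctsz*, the gene of a carboxypeptidase, had 6, 2 and 0 exon reads in Trpm7R/R and 8, 9 and 6 in WT, which touched at 6 reads. It was under the filter, with a log2 fold change of -1.39 (SE 0.74, adjusted p = 0.920 in edgeR) over all genes with at least 1 count.

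Among the precursors, *Psap* encodes the protein cut into saposins, which help enzymes reach sphingolipids. It had 19, 6 and 15 exon reads in Trpm7R/R and 35, 42 and 27 in WT, and every Trpm7R/R library was below every WT library. The log2 fold change was -1.34 (SE 0.42, 95% interval -2.26 to -0.43), at an unadjusted p of 0.00712 and an adjusted p of 0.333 in edgeR. Of 19 alternatives only limma-voom called it, at a log2 fold change of -1.66 and an adjusted p of 0.0236. In Trpm7R/R its exons lay at 1.05 ± 0.462 times the background, and in WT at 2.88 ± 0.632 times.

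*Grn* encodes progranulin, a secreted protein that is also delivered to lysosomes and cut into granulins. It had 22, 8 and 5 exon reads in Trpm7R/R and 6, 9 and 11 in WT. Trpm7R/R library 4 was highest and library 8 lowest of all 6, and the gene was under the filter. Over all genes with at least 1 count its log2 fold change was 0.51 (SE 0.55, adjusted p = 0.938 in edgeR), the only positive one among the 9 genes, and its exon density was below the background in both genotypes on average, 0.749 ± 0.554 times in Trpm7R/R and 0.572 ± 0.181 times in WT.

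Of the membrane proteins, CD63 is a tetraspanin of late endosomes, lysosomes and secretory granules. *Cd63* had 46, 32 and 45 exon reads in Trpm7R/R and 63, 75 and 58 in WT. The groups did not overlap, and the log2 fold change was -0.63 (SE 0.30, 95% interval -1.27 to 0.01, adjusted p = 0.894 in edgeR). *Lamp1*, which encodes one of the most abundant glycoproteins of the lysosomal membrane, had 27, 16 and 32 exon reads in Trpm7R/R and 37, 23 and 24 in WT. Its groups overlapped, and the interval of its log2 fold change of -0.14 (SE 0.38) ran from -0.96 to 0.68.

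*Scarb2* encodes LIMP-2, the receptor that carries glucocerebrosidase to lysosomes. It had the most exon reads of the 9 genes, 139, 57 and 89 in Trpm7R/R and 81, 129 and 114 in WT. The highest and the lowest library were both Trpm7R/R, and the log2 fold change was -0.16 (SE 0.33, 95% interval -0.87 to 0.55, adjusted p = 1.00 in edgeR). The estimate for *Ctsd*, -1.81, lay outside the intervals of *Lamp1* and *Scarb2*, but the interval of *Ctsd* overlapped that of *Lamp1*. Exon density was 1.29 times that of the gene's own introns in Trpm7R/R and 1.44 times in WT for *Lamp1*, against 5.86 and 6.43 times for *Scarb2*. How much of these counts came from unspliced RNA or background was not tested.

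Other scalings moved all genes together. When libraries were scaled by the reads of 80 ribosomal protein genes, the median over all genes tested moved to 1.33 on the log2 scale, and the values became -0.34 for *Ctsd*, 0.00 for *Psap*, 0.72 for *Cd63*, 0.83 for *Ctsl*, 1.15 for *Lamp1* and 1.16 for *Scarb2*. When libraries were scaled by their exon-exon reads the median moved to 1.58, and the values were -0.13, 0.23, 0.95, 1.04, 1.42 and 1.37 for the same genes in that order. All 6 lay below the median of all genes under these scalings, and their changes of sign came with this shift of all genes. Of the 6, 1 passed the call rule as higher under the first, *Scarb2*, as did 61.2% of all genes tested, and 2 under the second, *Lamp1* and *Scarb2*, as did 79.0%. Their order under the first scaling differed from that under TMM only in *Lamp1* and *Scarb2*. A term for libraries with Y-linked reads, added after the data were seen, gave -1.39 for *Ctsd*, -1.20 for *Ctsl*, -0.86 for *Psap*, -0.51 for *Cd63*, -0.06 for *Lamp1* and 0.36 for *Scarb2*. Because this term set Trpm7R/R libraries 6 and 8 apart from all others, these values rest on Trpm7R/R library 4 alone against the WT libraries.

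**Figure D2:**
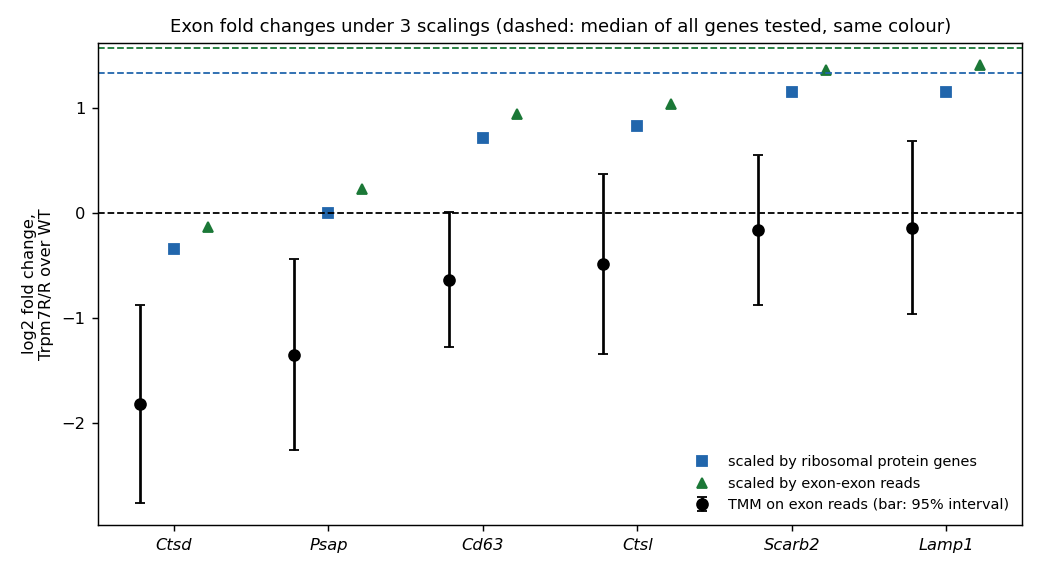
Log2 fold changes of exon reads, Trpm7R/R over WT (vertical axis), of the 6 genes that passed the filter, under TMM scaling (black, bars 95% intervals), scaling by ribosomal protein genes (blue) and scaling by exon-exon reads (green); dashed lines mark the median of all genes tested under the scaling of the same colour, 0.01, 1.33 and 1.58. *Ctsd* was negative under all 3 scalings, and *Lamp1* and *Scarb2* lay closest to the median.

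Introns of the same genes were compared to see whether reads outside exons moved with genotype. Over 20921 genes edgeR called 0 (0%), with 185 higher and 207 lower at an unadjusted p under 0.05, no other tool being run on introns, and of the 9 genes 6 were tested. *Psap* had 82, 53 and 74 intron reads in Trpm7R/R and 50, 60 and 67 in WT, with overlapping groups and a log2 fold change of 0.21 (SE 0.25). Values for *Ctsl*, *Ctsb*, *Lamp1* and *Scarb2* were 0.58, 0.02, -0.04 and -0.11, all with an adjusted p of 1.00 in edgeR. The value of *Ctsl* was 1.53 without WT library 1 and 0.17 without WT library 2.

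*Ctsz* was the exception in its order of libraries: its introns held 90, 84 and 83 reads in Trpm7R/R and 68, 71 and 70 in WT. Every Trpm7R/R library was higher, as for 2.46% of genes tested, and the log2 fold change was 0.29 (SE 0.22, adjusted p = 1.00 in edgeR). The introns of *Ctsz* and *Lamp1* were the only ones of the 9 genes with a mean density above the background, 1.90 ± 0.265 times in Trpm7R/R and 1.57 ± 0.0841 times in WT for *Ctsz*, and 1.58 ± 0.336 times in Trpm7R/R and 1.64 ± 0.287 times in WT for *Lamp1*. Both overlap a protein-coding gene on the opposite strand, *Nelfcd* and *Grtp1*, as *Ctsb* and *Grn* overlap others. Whether reads of those genes were counted here was not tested.

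**Figure D3:**
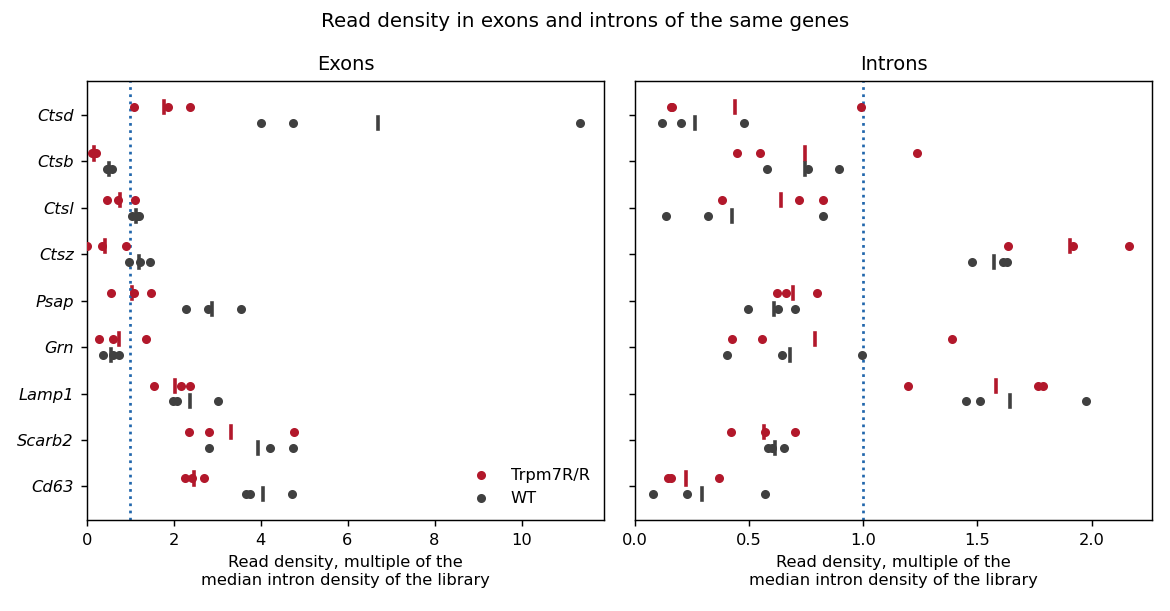
Read density in exons (left panel) and introns (right panel) of the 9 genes as a multiple of the median intron density of the same library (horizontal axes), for Trpm7R/R (red, upper row of each gene) and WT (grey, lower row); points are libraries, short bars their means, and the dotted line marks the background. *Ctsd* exons averaged 1.79 in Trpm7R/R and 6.70 in WT, whereas introns overlapped between genotypes for all genes but *Ctsz*.

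The exon change was then tested against the intron change of the same gene in 1 fit of 10166 genes. edgeR called 0 of them (0%), with 181 higher and 412 lower at an unadjusted p under 0.05, its smallest adjusted p being 0.260, and the likelihood ratio test called 31 lower. Of the 4 lysosomal genes with enough intron reads, *Psap* and *Ctsl* were lower at an unadjusted p under 0.05, against 4.05% of all genes. The exon change of *Psap* was lower than its intron change by a log2 value of -1.61 (SE 0.41, unadjusted p = 0.00140, adjusted p = 0.362 in edgeR). For *Ctsl* this difference was -1.18 (SE 0.55, adjusted p = 0.845 in edgeR), and for *Lamp1* and *Scarb2* it was -0.12 and -0.08. *Ctsd* and *Cd63* had too few intron reads for this test.

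Exon-exon reads, which come from spliced RNA, totalled 31 in Trpm7R/R and 81 in WT over the 9 genes, and *Cd63* alone gave 15 of them in Trpm7R/R and 65 in WT. It had 9, 2 and 4 such reads in Trpm7R/R and 27, 21 and 17 in WT. The groups did not overlap as raw reads or per 1000000 mapped reads, with 0.278 ± 0.216 in Trpm7R/R and 1.17 ± 0.257 in WT (exact permutation test, two-sided p = 0.1, the smallest that 3 against 3 can give). The exon-exon reads of all genes used did not overlap on these scales either, at 0.0348% to 0.0514% of mapped reads in Trpm7R/R and 0.0917% to 0.194% in WT. As a share of all exon-exon reads those of *Cd63* did overlap, at 5.76 ± 3.83 per 10000 in Trpm7R/R and 8.36 ± 2.15 in WT (exact permutation p = 0.4). *Cd63* was the only 1 of the 9 genes among the 563 tested on exon-exon reads, of which edgeR called 16 in either direction (2.84%). Its log2 fold change there was -0.68 (SE 0.56, adjusted p = 0.590 in edgeR), against a median of -0.17 over all genes tested, and scaling by mapped reads gave -2.06 (adjusted p = 0.0163), with a median of -1.67 over all genes and 44.2% of them called lower. Without Trpm7R/R library 4 the log2 fold change under TMM was -1.42 (adjusted p = 0.337 in edgeR). The term for Y-linked reads, which left Trpm7R/R library 4 alone against WT, turned it to 0.047.

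Splice-junction reads of the other genes were few. *Ctsd* had 206 exon reads in WT and 1 that crossed a junction, or 0.485% (exact binomial 95% interval 0.0123% to 2.67%), whereas *Cd63* had 196 exon reads in WT and 65 that did, or 33.2% (26.6% to 40.2%). The median share over 76 genes well above the background was 34.7% in Trpm7R/R and 45.1% in WT, and *Ins2* had 26.5% in Trpm7R/R and 33.9% in WT. Those 76 had to average 1 exon-exon read or more to be chosen, which by itself raises their share. *Ctsd* overlaps a second gene model on its own strand, *Gm49369*, which had 0 exon and 0 exon-exon reads in every library, and how reads of the shared part were assigned is not stated in those sources. *Scarb2* had 6 junction reads among 324 exon reads in WT (1.85%), *Lamp1* 1 among 84 (1.19%) and *Psap* 1 among 104 (0.962%). Shares in WT were higher for *Ctsb*, with 3 among 41 (7.32%), and for *Ctsl*, with 4 among 97 (4.12%). *Ctsz* had 0 among 23 and *Grn* 0 among 26. Whether the long merged exons of *Cd63*, *Ctsl* and *Ctsb* bear on differences in junction share between genes was not tested. In Trpm7R/R *Ctsd* had 0 among 56, which allows a share of up to 6.38%, and *Lamp1* 0 among 75, which allows up to 4.80%.

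In Trpm7R/R the junction share of *Cd63* was 19.6%, 6.25% and 8.89% in libraries 4, 6 and 8, against 42.9%, 28.0% and 29.3% in WT libraries 1, 2 and 3. This share was computed for the 9 genes after the data were seen, needs no scaling between libraries, and did not overlap for *Cd63*, with means of 11.6% ± 7.05 in Trpm7R/R and 33.4% ± 8.23 in WT (exact permutation test, two-sided p = 0.1, the smallest possible). Of the 76 genes well above the background, 19.7% were likewise lower in every Trpm7R/R library than in every WT library. *Psap* lay the other way, with 5 junction reads among 40 exon reads in Trpm7R/R (12.5%) and 1 among 104 in WT (exact permutation p = 0.1 over libraries), a difference that rests on 6 reads. The intervals cover counting error only, and reads copied by PCR are not independent molecules.

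**Figure D4:**
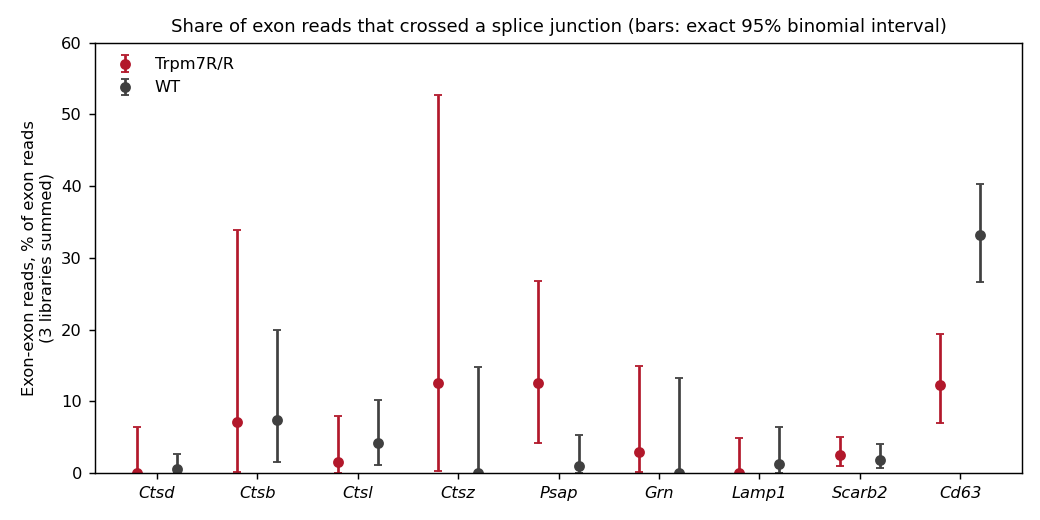
Exon-exon reads as a percentage of exon reads (vertical axis), summed over 3 libraries, of the 9 genes in Trpm7R/R (red, left of each pair) and WT (grey, right); bars are exact binomial 95% intervals, which cover counting error only. *Cd63* stood at 12.2% in Trpm7R/R and 33.2% in WT, while *Ctsd* and *Lamp1*, with comparable or fewer exon reads, stood near 0.

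Other lysosomal genes gave a context for these values. Of 15 other lysosomal proteases and peptidases in the files 5 were tested on exon reads, with a median log2 fold change of -0.10. The smallest unadjusted p belonged to the cysteine protease gene *Ctsf* (-1.24, adjusted p = 0.634 in edgeR) and then to *Ctse* (-0.27), the gene of an aspartic protease. Of 38 glycosidases, sulfatases, lipases, nucleases and activators 20 were tested, 14 of them negative, with a median of -0.23. *Gla*, the α-galactosidase A gene, stood at 0.94 (adjusted p = 0.800 in edgeR). Of 27 other membrane proteins 14 were tested, with a median of 0.08, and the sialomucin gene *Cd164* (-1.01, adjusted p = 0.639 in edgeR) and *Litaf* (-0.58) had the smallest p. None of these 3 lists had a gene called.

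Lists of sorting and control genes centred near the median of all genes. For enzyme sorting 10 of 16 genes were tested (median 0.00), led by the AP-3 subunit gene *Ap3d1* (-0.40) and *Gnptab* (0.35), which starts the mannose 6-phosphate tag. For lysosome biogenesis and nutrient sensing 6 of 15 were tested (median -0.03), led by *Rptor* (0.49) and *Mtor* (-0.27) of the mTORC1 kinase complex. Among inhibitors of cathepsins and binders of progranulin 2 of 6 were tested, and *Cst3*, the gene of the secreted inhibitor cystatin C, stood at -1.59 (adjusted p = 0.123 in edgeR) with *Cst6* at -0.17.

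All 12 tested of 18 vacuolar proton pump subunit genes were negative, with a median of -0.83, and 4 of them were lower at an unadjusted p under 0.05. *Atp6v0e* and *Atp6v0e2* stood at -1.89 and -1.94 (adjusted p = 0.210 and 0.215 in edgeR). The 11 tested of 14 ER chaperone and disulfide isomerase genes were all negative too, with a median of -1.39, all 11 at an unadjusted p under 0.05. *Hsp90b1*, the gene of the ER chaperone GRP94, fell with a log2 fold change of -2.12 (adjusted p = 0.0412 in edgeR), the only call in these lists, and *P4hb* stood at -2.24 (adjusted p = 0.0516). The log2 fold change of *Ctsd* thus lay within the range of the proton pump and ER chaperone genes, and those of *Lamp1* and *Scarb2* near the medians of the other lysosomal lists.

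**Figure D5:**
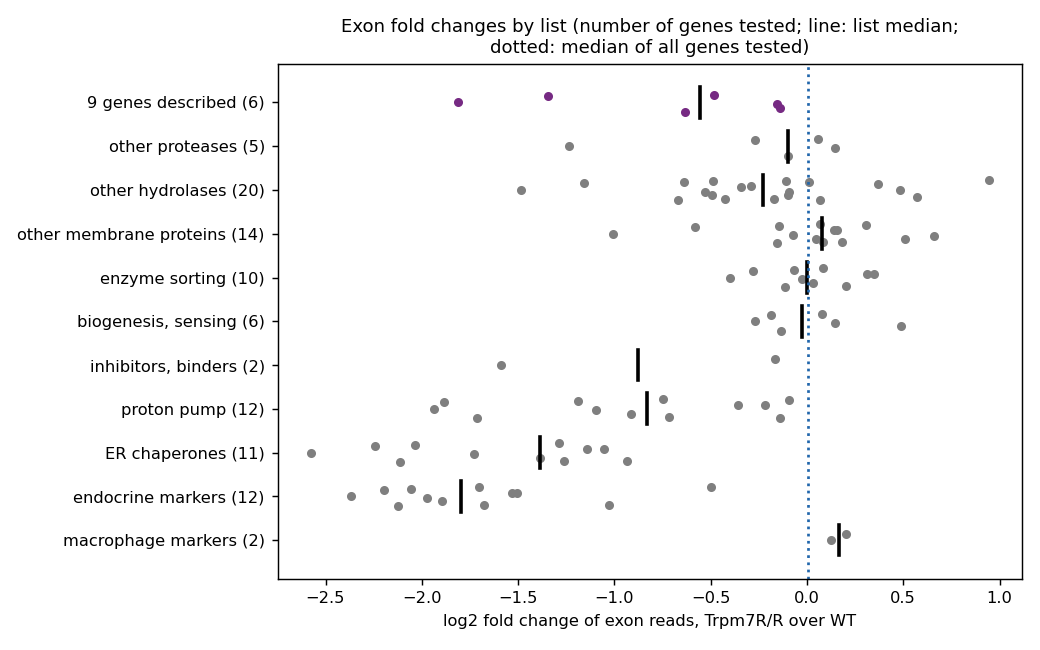
Log2 fold changes of exon reads, Trpm7R/R over WT (horizontal axis), of the tested genes of each list (rows, with the number tested); points are genes, black lines the list medians, and the dotted line the median of all genes tested. The 6 lysosomal genes of the first row had a median of -0.56, the other lysosomal lists lay between -0.23 and 0.08, apart from the 2 inhibitors at -0.88, and the proton pump, ER chaperone and endocrine lists lay at -0.83, -1.39 and -1.80.

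Markers of the cells that could contribute these transcripts moved unequally with genotype. All 12 endocrine markers were negative on exon reads, with a median of -1.80, and the 76 genes well above the background, none of which was among the 9, had a median of -1.57 with 70 negative. These 76 were chosen on means over all 6 libraries, so that a gene could enter through high WT values alone. Of the 3 calls of the exon fit 1 was an endocrine marker: *Ppy*, the pancreatic polypeptide gene, fell with a log2 fold change of -2.37 (adjusted p = 0.0255 in edgeR) and is named outside the rule for named genes. *Ins2* and *Gcg*, the genes of insulin and glucagon, stood at -2.13 and -1.97 (adjusted p = 0.0985 and 0.0585 in edgeR). Macrophages are rich in lysosomes, but 2 of 16 macrophage and leukocyte markers were tested, with a median of 0.16, and *Ptprc*, the CD45 gene, stood at 0.12 (adjusted p = 1.00 in edgeR). The defining markers *Csf1r*, *Adgre1* and *Lyz2* had 6 to 8, 5 to 10 and 1 to 8 exon reads per library in Trpm7R/R and 4 to 8, 5 to 7 and 3 to 5 in WT. The part of cell composition in the values of the 9 genes was not tested.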

How the data were processed

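RNA from whole islets of 3 Trpm7R/R and 3 WT mice was sequenced on an Illumina NovaSeq instrument after low-input library preparation. The authors mapped the reads and deposited 1 table per library with raw counts per gene in exons, in introns, across exon-exon junctions and in whole genes. The deposited RPKM values are exon reads per kilobase of exon and per 1000000 mapped reads, made by the authors, and mapped reads were derived from them. The submitters' notes name the build mm10, but positions in the tables differ from GRCm38, so only chromosomes were taken from them. Aligner, counter and strand setting are not stated in those sources that were used. Comparison tables of the authors, with fold changes and p-values, were not used, nor were TPM values. GENCODE M21 served for overlapping genes: on the opposite strand *Ctsb* overlaps *Fdft1*, *Ctsz* *Nelfcd*, *Lamp1* *Grtp1*, *Grn* *Fam171a2*, *Ctsl* the antisense gene *Gm47123* and *Scarb2* the microRNA gene *Mir6415*, whose reads cannot be told apart if strand was not used.

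Counts were tested with the quasi-likelihood test of edgeR 4.0.16 (R 4.3.3), with a genotype term alone, TMM scaling and the filter filterByExpr at a minimum of 10 counts (3 counts and a total of 10 for exon-exon reads), with Benjamini-Hochberg adjustment over all genes tested. Effective library sizes for exon reads were 1369590 to 1646670. Exon and intron reads were fitted together with the library as a block. Background was the median intron density over 5402 genes whose introns span 50000 bases or more. Genes well above it had, as means over all 6 libraries, at least 5 times its density in exons, 5 times that of their introns, and 1 exon-exon read or more. Alternatives were DESeq2 1.42.0, limma 3.58.1 (voom), other scalings, filters and counts, and leaving out each library. The pipeline was tested on simulated data. Named genes were the 9, the 2 of smallest p per list, fixed markers and *Trpm7*, and 1 gene under this rule is not reported here. Members and lists were chosen with earlier results of these data known, and *Gm49369* and *Ppy* were named after their values were seen. Tables and plots were made with Python 3.11.15, pandas 2.3.3, scipy 1.17.1 and matplotlib 3.10.9. P-values of the count tests rest on the spread between 3 mice per genotype, drawn towards that of the other genes tested.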

Additional observations from a re-analysis of the deposited data

How the results depend on the processing

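*Ctsd* stayed negative under all 20 alternatives, and its adjusted p ran between 0.00280 and 1.00. On exon reads 3 genes were called lower and 0 higher, against 30 lower with upper quartile scaling, 23 with library size alone, 29 with a filter of 30 counts, 97 with DESeq2, 30 outside X and Y, 69 at an adjusted p of 0.1, and 0 with total gene reads or the term for Y-linked reads. There were 10 higher and 131 lower over genes with at least 1 count, 1 and 161 with the likelihood ratio test, 60 and 277 with limma-voom, 1 and 0 among genes well above background, 7140 and 8 with scaling by ribosomal protein genes, and 9222 and 5 with scaling by exon-exon reads. Those 2 scalings turned *Ctsl* to 0.83 and 1.04, *Psap* to 0.0012 and 0.23, *Lamp1* to 1.15 and 1.42, *Cd63* to 0.72 and 0.95 and *Scarb2* to 1.16 and 1.37. The term for Y-linked reads, chosen after seeing the data, turned *Scarb2* to 0.36, and every fit with this term left Trpm7R/R library 4 alone against WT. On exon-exon reads 15 genes were called higher and 1 lower, against 3 and 181 with library size alone, 3 and 249 with mapped reads, 0 and 4 over genes with at least 1 count, 0 and 0 with a filter of 10 counts, 35 and 7 with the likelihood ratio test, 7 higher with DESeq2 or without hormone genes, and 8 and 0 with the term for Y-linked reads, which turned *Cd63* to 0.047. The exon-against-intron test had 31 lower calls with the likelihood ratio test. Per 1000000 mapped reads the exon-exon difference of *Ctsb* turned to -0.0348. Leaving out 1 library gave 0 to 45 higher and 0 to 151 lower calls on exon reads (45 and 151 without Trpm7R/R library 4), 0 to 39 and 0 to 5 on exon-exon reads, 0 to 160 and 0 to 148 on introns (160 and 148 without Trpm7R/R library 4), and 0 to 1 higher for exon against intron. Over these fits the log2 fold change ran from -2.09 to -1.20 for *Ctsd*, from -0.24 to 0.17 for *Lamp1*, from -0.50 to 0.054 for *Scarb2* and from -0.82 to -0.20 for *Ctsl* on exon reads, from -1.42 to -0.48 for *Cd63* on exon-exon reads, from -0.53 to 0.28 for *Ctsb*, from 0.17 to 1.53 for *Ctsl*, from -0.14 to 0.14 for *Lamp1* and from -0.28 to 0.059 for *Scarb2* on introns, and from -0.36 to 0.21 for *Lamp1* and from -0.20 to 0.13 for *Scarb2* for exon against intron. The cause of these changes was not tested. No paired analysis was made, because no pairing of mice between the genotypes is stated in those sources that were used. Depth limited *Ctsb*, *Ctsz* and *Grn*, which had at most 22 exon reads in any library.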
